A study of Rattus norvegicus with 10 samples.

Results

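The transcripts described here encode the constitutive proteasome, the large protease that degrades proteins tagged with ubiquitin, together with its activators. Members were all rows whose symbol begins with Psma, Psmb, Psmc, Psmd or Psme and a number, without the inducible core subunits Psmb8, Psmb9 and Psmb10. This gave 41 of the 17221 transcripts in the table. By role they were 16 subunits of the core particle, 17 subunits of the regulatory cap, 3 chaperones of cap assembly (Psmd5, Psmd9 and Psmd10), 4 activators (Psme1 to Psme4) and 1 match by name only, Psmc3ip, which encodes a meiotic recombination protein and is in no class below.

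The study asked how a mechanical stimulus beneath the skin acts on arthritis, and the tissue is muscle from under the skin, excised around the stimulated points of female Wistar rats. All 10 libraries came from rats with collagen-induced arthritis, raised by immunisation with bovine type II collagen in adjuvant, so no healthy animal is among them. The group RA_0 had no therapy yet, AP_1h and AP_34d are rats at 1 hour and 34 days of acupuncture (a needle inserted and twirled), and PLA_1h and PLA_34d are rats at those times of placebo, a sterile saline injection into the peritoneum. Each group held 2 libraries, labelled replicate 1 and 2 and taken here as separate rats. The placebo differs from acupuncture in site, in procedure and in frequency (once a week, against every other day). The rats' age is not given in the labels. Each value is a read count scaled to counts per 1e+06 reads (CPM). The libraries held 5371687 to 8899521 counted reads, so 1 CPM stood for 4.19 to 10.1 reads.

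In the proteasome an alpha ring closes each end of the core and gates its entry, and the beta rings inside hold the cutting sites. The cap binds the ubiquitin chain, removes it and unfolds the substrate with a ring of ATPases, whereas the Psme activators open the core without ubiquitin. In skeletal muscle this system does much of the breakdown of contractile proteins during wasting. Most cells make the subunits in fixed proportion, and the transcription factor Nfe2l1 raises their genes together through antioxidant response elements when proteasome activity falls short.

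Promoters of 35 members were read from RefSeq (rat build GRCr8, 250 bases before to 50 after the annotated start), since subunit genes are known to be regulated together. Shown are only promoters with a match to TGACNNNGC, the core of the antioxidant response element. They are those of 2 active-site subunits, a cap scaffold and the activator whose level differed most. They are written 5′ to 3′ on the gene's strand, with matches on either strand in capitals. They lie at chr15:32047330-32047629 (minus strand, Psmb5), chr10:55737638-55737937 (plus, Psmb6), chr9:94157721-94158020 (plus, Psmd1) and chr14:108706393-108706692 (plus, Psme4).
Psmb5: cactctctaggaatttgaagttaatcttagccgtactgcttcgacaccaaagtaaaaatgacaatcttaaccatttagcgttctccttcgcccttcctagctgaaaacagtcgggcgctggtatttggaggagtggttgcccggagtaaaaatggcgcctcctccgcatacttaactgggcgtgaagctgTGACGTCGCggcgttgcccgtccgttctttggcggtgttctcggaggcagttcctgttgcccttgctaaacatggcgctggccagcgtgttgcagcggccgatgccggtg
Psmb6: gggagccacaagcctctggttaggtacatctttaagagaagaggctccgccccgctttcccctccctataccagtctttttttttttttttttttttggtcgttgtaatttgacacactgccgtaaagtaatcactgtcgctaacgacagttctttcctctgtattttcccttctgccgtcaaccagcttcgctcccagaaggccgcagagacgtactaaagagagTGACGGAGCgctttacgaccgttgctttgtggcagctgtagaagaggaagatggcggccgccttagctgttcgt
Psmd1: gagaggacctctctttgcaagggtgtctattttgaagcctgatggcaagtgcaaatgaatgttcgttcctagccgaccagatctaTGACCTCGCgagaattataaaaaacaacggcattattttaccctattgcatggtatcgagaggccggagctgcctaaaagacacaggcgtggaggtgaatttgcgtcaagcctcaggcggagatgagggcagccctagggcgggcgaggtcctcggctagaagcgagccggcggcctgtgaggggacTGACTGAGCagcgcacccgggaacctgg
Psme4: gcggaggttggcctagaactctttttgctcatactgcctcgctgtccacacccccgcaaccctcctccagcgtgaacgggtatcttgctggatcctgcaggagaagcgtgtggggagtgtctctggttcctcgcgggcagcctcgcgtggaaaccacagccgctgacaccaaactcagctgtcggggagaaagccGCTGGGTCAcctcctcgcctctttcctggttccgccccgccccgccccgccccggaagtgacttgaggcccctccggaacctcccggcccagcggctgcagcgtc
The match began 60 bases before the start in Psmb5, 24 before it in Psmb6, 165 before and 22 after it in Psmd1, and 55 before it in Psme4, where it is on the other strand. TGACNNNGC was present in 8 of the 35 promoters (22.9%), against 4038 of 33469 promoters of the build (12.1%). The promoters of the active-site subunit Psmb7, the scaffold Psmd2 and the activators Psme1 to Psme3 had no match. Core promoters held TGACNNNGC in 4 of 13, cap promoters in 2 of 14 and activator promoters in 1 of 4. The CCAAT box, bound by NF-Y, was present on either strand in 18 of 35 (51.4%), against 37.5% of all promoters, with 9 of 13 in the core and 5 of 14 in the cap. In Psmb2 a match to each motif overlapped by 1 base. These are matches of letters in a window, not binding sites, and they were not related to the levels below.

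Of the 41 members, 39 passed the filter of at least 1 CPM in both libraries of a group. Psma3l (0 to 2 reads in every library) and Psmb11, the thymus form of an active-site subunit (0 to 5 reads), did not pass. Reads shared by Psma3l and Psma3, which overlap on 1 strand, are dropped by the counting, so Psma3 is uncertain. Psmd1, Psme1 and Psmc3ip overlap a gene on the other strand (Htr2b, Fam158a and Mlx), and whether strand was used in counting is not stated. The row of Psmd10 spans only 169 bases.

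The levels of core and cap subunits moved together from library to library. For each member the mean of log2(CPM + 1) over the 10 libraries was subtracted, and the median of these deviations was taken over the class. For the 14 tested core subunits it was 0.30 and −0.41 in RA_0, 0.25 and 0.04 in AP_1h, −0.26 and 0.37 in PLA_1h, 0.25 and 0.30 in AP_34d, and −0.79 and −0.12 in PLA_34d. For the 17 cap subunits it was 0.05 and −0.39 in RA_0, 0.26 and −0.16 in AP_1h, −0.15 and 0.35 in PLA_1h, 0.29 and 0.64 in AP_34d, and −0.77 and −0.11 in PLA_34d. Both AP_34d libraries were thus above 0 and both PLA_34d libraries below 0 in both classes. The libraries of RA_0 and of PLA_1h lay on both sides of 0 in both classes, and those of AP_1h did so in the cap. The summed level of all 39 tested members ran from 3067 CPM in PLA_34d replicate 1 to 7590 CPM in AP_34d replicate 2. PLA_34d replicate 1 was the lowest of the 10 libraries for 32 of 39 members, among them 17 of 17 cap and 13 of 14 core subunits, against 17.3% of all tested transcripts. AP_34d replicate 2 was the highest for 17 of 39, 11 of them in the cap, against 14.7% of all.

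**Figure D1:**
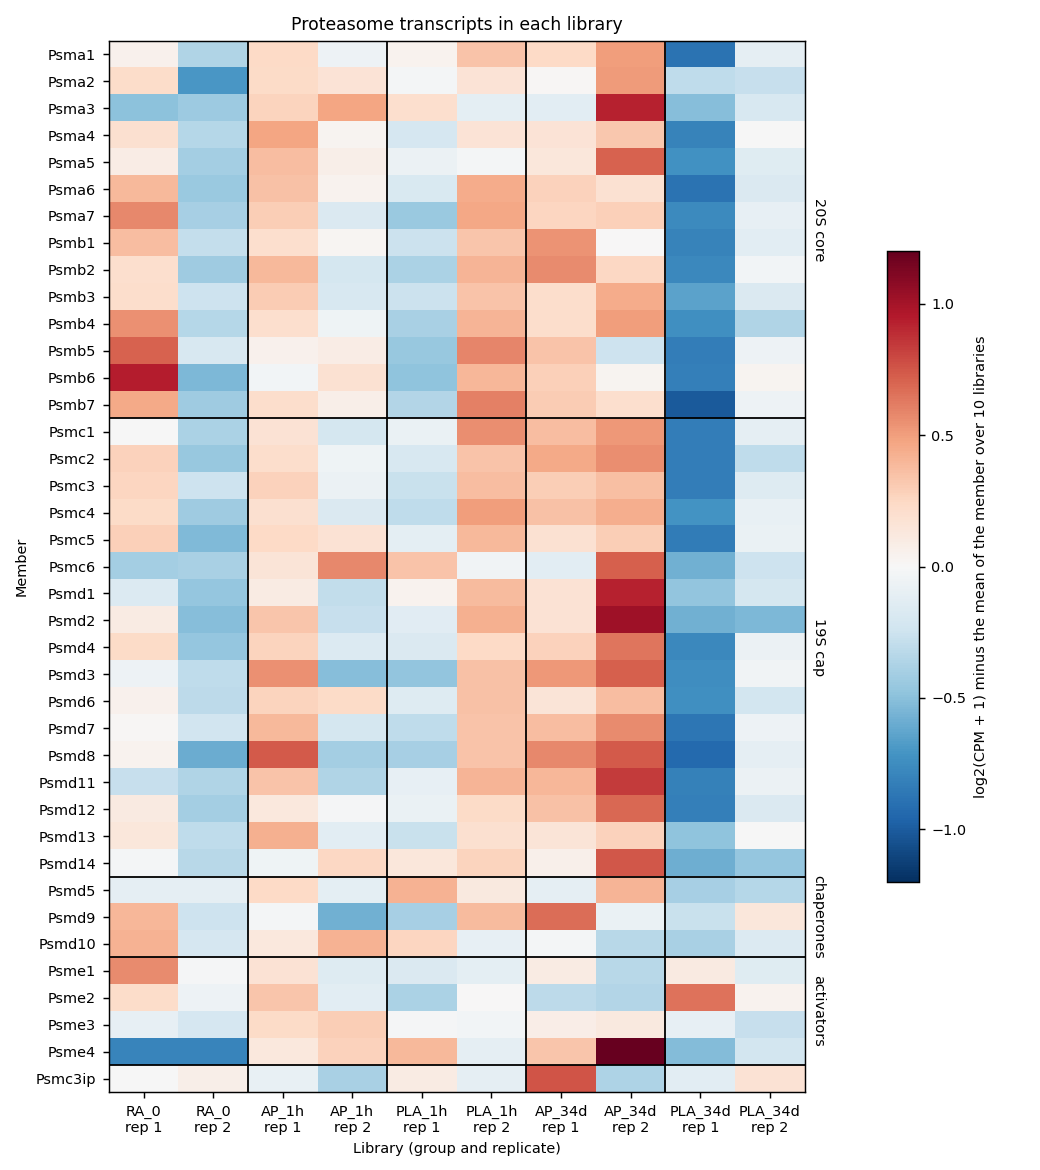
Level of the 39 tested members (rows, grouped by role) in the 10 libraries (columns), as log2(CPM + 1) minus the member's mean over the libraries, red above and blue below it. The column of PLA_34d replicate 1 is blue in the core and cap rows, and the Psme rows near the foot follow other patterns.

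Replicates of a group differed nearly as much as groups did. The core was a median of 0.74 (log2) higher in replicate 1 than in replicate 2 of RA_0, with 13 of 14 members on that side. The same difference was −0.62 in PLA_1h and −0.69 in PLA_34d, with 13 of 14 and 14 of 14 members lower in replicate 1, and −0.09 in AP_34d. Pooled over the 5 groups, the SD between replicates of the class median was 0.37 for the core, 0.34 for the cap and 0.11 for the activators, each from 5 pairs of libraries. No source used here pairs the rats. The limma p-values below rest on a spread between replicates that the 5 groups share, drawn towards the trend over all tested transcripts. They do not measure the spread in the compared groups alone.

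The AP_34d and PLA_34d groups asked how 34 days of acupuncture compared with 34 days of placebo, and here the proteasome differed most. All 14 tested core and all 17 cap subunits had the higher mean log2 level in AP_34d, as did 50.2% of all tested transcripts. The median difference was 0.91 (log2, 1.88-fold) over the 17 cap subunits and 0.75 (1.68-fold) over the 14 core subunits, beside 0.00 over all 10259 tested transcripts. Yet with limma, adjusted over all those transcripts, 0 of 39 members passed at 0.05, and the smallest adjusted p among them was 0.846. At an unadjusted p under 0.05, 17 members were higher and 0 lower (13 of the cap, 3 of the core and Psme4), against 2.51% of all tested transcripts higher and 2.96% lower. edgeR and DESeq2 also called 0 members (DESeq2 called 0.848% of all), with 12 and 18 members higher at an unadjusted p under 0.05 (2.64% and 3.05% of all higher, 4.88% and 4.65% lower). Both AP_34d libraries lay above both PLA_34d libraries for 32 of 39 members (16% of all tested transcripts) and below them for 1 (15% of all). Quantile normalization lowered the medians to 0.74 for the cap and 0.60 for the core, and the other scalings left them at 0.91 and 0.75.

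That count rested on single libraries. Without PLA_34d replicate 1 it was 0 members at an unadjusted limma p under 0.05 (1.46% of all transcripts), and the medians were 0.56 for the cap and 0.42 for the core. Without AP_34d replicate 2 it was also 0 (2.12% of all). Without PLA_34d replicate 2 it was 23 higher and 1 lower, against 2.6% and 8.25% of all, and limma then called 1.7% of all transcripts but 0 members. The medians kept their direction against PLA_34d replicate 2 alone. Each AP_34d library exceeded it for 17 of 17 cap subunits, by medians of 0.45 and 0.76. For the core it was 14 and 12 of 14 subunits, by medians of 0.36 and 0.37, beside the SD of 0.37 between replicates. The share of all transcripts was not computed for these pairs of libraries. The subunits moved together, so they are not separate observations.

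Marker sums of muscle composition varied between libraries as well, and the lowest fast fibre and highest leukocyte sums were both in PLA_34d replicate 1. The 7 fast fibre markers in the table (of 8 listed) summed to 5.61e+04 CPM in PLA_34d replicate 1, and to 1.34e+05 CPM in its replicate 2, 1.34e+05 and 1.27e+05 in AP_34d, 1.43e+05 and 9.35e+04 in RA_0, 8.43e+04 and 1.53e+05 in AP_1h and 9.18e+04 and 1.68e+05 in PLA_1h. The 7 leukocyte markers summed to 888 CPM in PLA_34d replicate 1, against 105 in replicate 2, 237 and 122 in AP_34d, 135 and 113 in RA_0, 527 and 157 in AP_1h and 175 and 163 in PLA_1h. Transcripts of Ptprc were at 0 in every library, and 4 leukocyte transcripts passed the filter. Of these 4, 1 was higher in AP_34d than in PLA_34d (median −0.65). Between these groups 0 of 7 fast fibre, 0 of 7 slow fibre and 0 of 4 leukocyte transcripts had an unadjusted limma p under 0.05. The 7 slow fibre markers summed to 2e+04 and 1.01e+04 CPM in RA_0, 975 and 1.12e+03 in AP_1h, 4.18e+03 and 1.84e+03 in PLA_1h, 1.11e+04 and 1.89e+03 in AP_34d and 1.99e+04 and 1.7e+03 in PLA_34d, with Atp2a2 at 0 in every library. They were thus high in both RA_0 libraries. Against RA_0 their median difference was −3.54 in AP_1h, −2.35 in PLA_1h, −1.68 in AP_34d and −1.54 in PLA_34d, with 7, 3, 0 and 0 of 7 lower at an unadjusted limma p under 0.05 and none passing adjustment. The 6 adipocyte markers summed to 384 and 151 CPM in AP_34d and 292 and 338 in PLA_34d. Of the 5 tested, 0 were higher in AP_34d than in PLA_34d (median −1.25, 1 lower at an unadjusted p under 0.05), and 5 were higher in PLA_34d than in RA_0 (median 1.69, 2 at an unadjusted p under 0.05). The scaling factor of PLA_34d replicate 1, 1.31, was the highest of the 10, and its share of reads from the 20 most abundant transcripts, 24.3%, the lowest. The part of these in the proteasome levels was not tested. In bulk muscle, fewer fibres and less RNA per fibre cannot be told apart. Fast fibre markers were abundant in all 10 libraries, as in muscle, whereas the 3 keratinocyte markers in the table summed to 1.76 to 6.11 CPM.

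**Figure D2:**
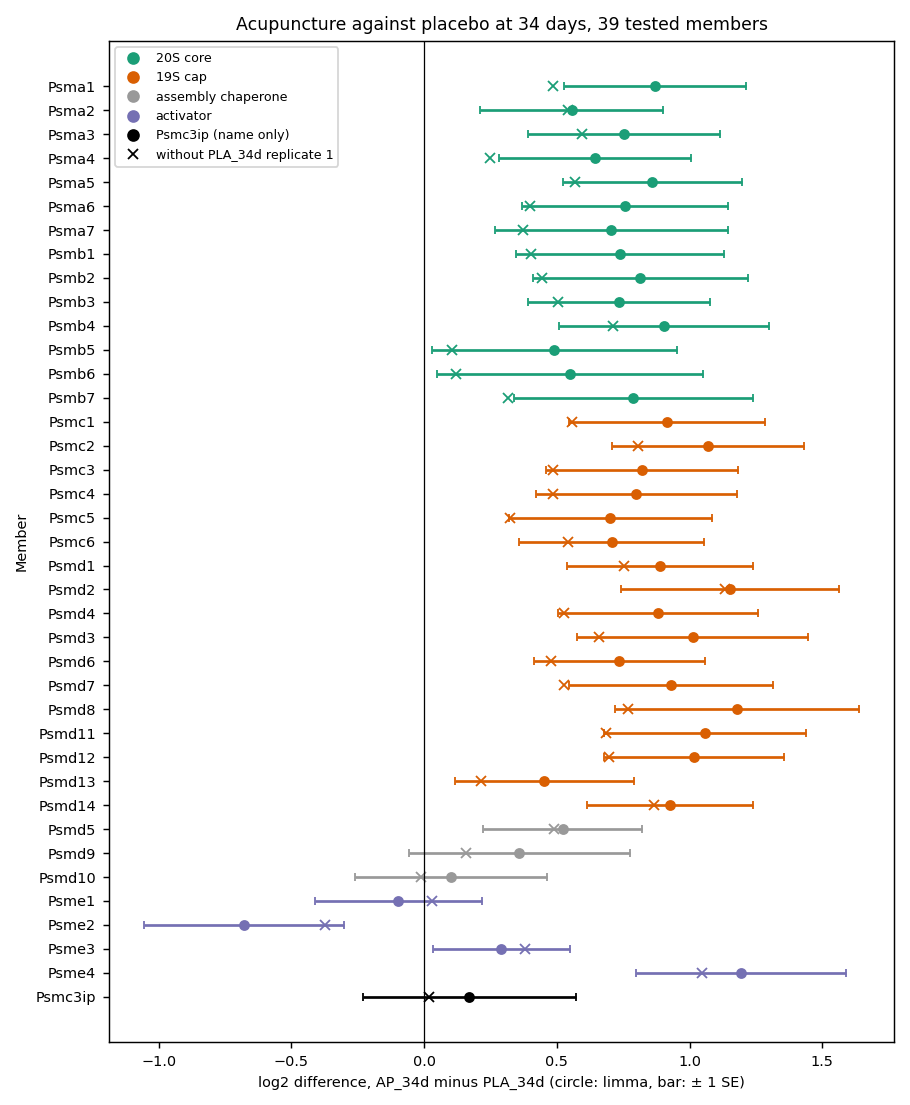
Difference in log2(CPM + 1) between AP_34d and PLA_34d for each tested member (circle, limma, with a bar of 1 SE either side) and the same difference without PLA_34d replicate 1 (cross), 2 libraries a group. Circles lie between 0.45 and 1.18 for the cap and between 0.49 and 0.90 for the core, and the crosses of all 31 are nearer to 0 but still above it.

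Within the core, the alpha ring (Psma1 to Psma7) had a median of 0.75 and the non-catalytic beta subunits (Psmb1 to Psmb4) of 0.78 in AP_34d against PLA_34d. Psma1, Psma5 and Psmb4 were those at an unadjusted p under 0.05 there, with differences of 0.87, 0.86 and 0.90, none of which passed adjustment. The 3 active-site subunits had a median of 0.55, and none reached an unadjusted p under 0.05. The order of these medians rested on AP_34d replicate 2: without it they were 0.57 for the alpha ring, 0.87 for the other beta subunits and 0.79 for the active sites. Without PLA_34d replicate 1 they were 0.48, 0.47 and 0.12.

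Psmb5, which carries the chymotrypsin-like site, stood at 317 and 169 CPM in RA_0, 201 and 206 in AP_1h, 141 and 291.5 in PLA_1h, 246 and 162 in AP_34d and 108 and 186 in PLA_34d. The AP_34d and PLA_34d libraries overlap, and the difference was 0.49 ± 0.46 (SE, limma adjusted p = 0.923). Psmb6, the caspase-like subunit, was at 102 and 36.1 CPM in RA_0, 51.8 and 60.3 in AP_1h, 37.6 and 69.8 in PLA_1h, 64.6 and 54.1 in AP_34d and 29.5 and 54.3 in PLA_34d. Its 2 RA_0 libraries were further apart than any 2 group means, and the 34-day difference was 0.55 ± 0.50 (adjusted p = 0.923). Psmb7, the trypsin-like subunit, was at 306 and 165 CPM in RA_0, 258 and 234 in AP_1h, 175 and 340.5 in PLA_1h, 277 and 257 in AP_34d and 111 and 214 in PLA_34d. Both AP_34d values exceeded both PLA_34d values, by 0.79 ± 0.45 (adjusted p = 0.883). With each library left out in turn the difference ran from 0.10 to 0.88 for Psmb5, from 0.12 to 0.98 for Psmb6 and from 0.32 to 1.26 for Psmb7, lowest without PLA_34d replicate 1 and highest without PLA_34d replicate 2 in each.

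Psma3, an alpha ring subunit, was at 32.0 and 33.4 CPM in RA_0, 55.0 and 63.7 in AP_1h, 52.3 and 41.9 in PLA_1h, 41.6 and 87.4 in AP_34d and 31.6 and 39.7 in PLA_34d. It was the core member with an unadjusted p under 0.05 against RA_0, by 0.84 ± 0.36 in AP_1h (limma adjusted p = 0.545) and 0.87 ± 0.36 in AP_34d (adjusted p = 0.967), and its reads are subject to the overlap with Psma3l.

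In the cap, the difference between AP_34d and PLA_34d had a median of 0.81 over the 6 ATPases of the base (Psmc1 to Psmc6), 0.89 over its 3 other subunits (the scaffolds Psmd1 and Psmd2 and the ubiquitin receptor Psmd4) and 0.97 over the 8 subunits of the lid. The order of these medians rested on single libraries. In the same order they were 0.77, 0.70 and 0.83 without AP_34d replicate 2, and 0.51, 0.75 and 0.67 without PLA_34d replicate 1. Without AP_34d replicate 2 the median was 0.76 over the whole cap and 0.71 over the core. With all libraries, the spread over the cap was from 0.45 (Psmd13) to 1.18 (Psmd8). The study's own rule asks for a change of at least 2-fold with an unadjusted p under 0.05 and a mean of at least 1 CPM. It was applied here to the limma fit on log2(CPM + 1), whereas the study used limma-voom, with which 12 members had an unadjusted p under 0.05 in this comparison (2.37% of all higher). In 6 cap subunits, Psmc2, Psmd2, Psmd3, Psmd8, Psmd11 and Psmd12, and in Psme4 the difference met it, against 1.38% of all tested transcripts.

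Psmd12, a lid subunit, was at 172 and 120.2 CPM in RA_0, 175 and 159 in AP_1h, 152 and 188 in PLA_1h, 204 and 258 in AP_34d and 90.3 and 141 in PLA_34d. Both AP_34d libraries lay above both PLA_34d libraries, as for 16% of all tested transcripts. The difference from PLA_34d was 1.02 ± 0.34 (limma adjusted p = 0.846, and 0.2 to 1 over the alternatives). Psmd14, the lid enzyme that removes ubiquitin chains, was at 53.4 and 42.9 CPM in RA_0, 52.1 and 64.4 in AP_1h, 59.7 and 65.5 in PLA_1h, 56.6 and 91.4 in AP_34d and 35.8 and 39.1 in PLA_34d. Its AP_34d libraries also lay above both PLA_34d libraries, and AP_34d differed from PLA_34d by 0.93 ± 0.31 (adjusted p = 0.846).

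Against RA_0, the cap in AP_34d had a median difference of 0.59 (1.51-fold), the core of 0.29 (1.22-fold) and the active-site subunits of −0.04. No member passed limma (smallest adjusted p 0.722), 4 were higher and 0 lower at an unadjusted p under 0.05 (2.51% of all transcripts higher, 2.25% lower), and 4 were so with edgeR (2.98% higher), which made 0 calls. The 4 became 2 without RA_0 replicate 1 (1.15% of all higher), 1 without RA_0 replicate 2 (2.3%) or AP_34d replicate 2 (1.22%), and 7 without AP_34d replicate 1 (6.95%). The AP_34d libraries lay above both RA_0 libraries for 23 of 39 members (16.4% of all), of which 16 were of the 17 cap subunits and 5 of the 14 core subunits, and below them for 1 (15.9%). The study's rule was met by Psme4 alone (1.49% of all higher). Psmd1, the scaffold at the outer end of the base, was at 175 and 142 CPM in RA_0, 211 and 160 in AP_1h, 202 and 256 in PLA_1h, 221 and 372 in AP_34d and 141 and 169.9 in PLA_34d. It differed by 0.86 ± 0.35 (limma adjusted p = 0.967). Psmd11, a lid subunit that touches the core, was at 143 and 135 CPM in RA_0, 220.3 and 135 in AP_1h, 162 and 231 in PLA_1h, 228 and 311 in AP_34d and 98.2 and 165 in PLA_34d, and differed by 0.94 ± 0.38 (adjusted p = 0.967). For both, AP_34d replicate 2 was the highest of the 10 libraries.

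Cap and core did not keep a fixed distance in that library. The cap median minus the core median was 0.34 in AP_34d replicate 2 and between −0.25 (RA_0 replicate 1) and 0.11 (PLA_1h replicate 1) in the other 9. The lid median minus the active-site median was 0.67 in AP_34d replicate 2 and 0.05 in AP_34d replicate 1, so the 2 libraries of that group differed in it. It was −0.68 in RA_0 replicate 1. The core difference between AP_34d and RA_0 hung on the latter: it was 0.69 without RA_0 replicate 1 and −0.03 without replicate 2.

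**Figure D3:**
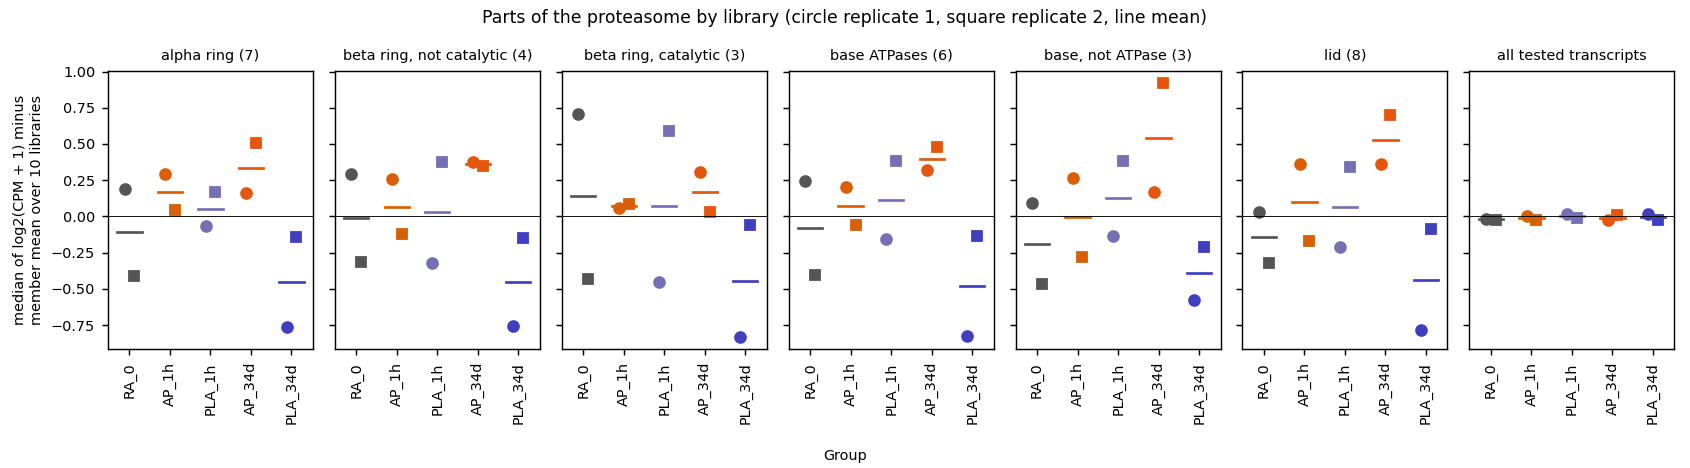
Median over the subunits of each part (number in brackets) of log2(CPM + 1) minus the member's mean over 10 libraries, by group, with a circle for replicate 1, a square for replicate 2 and a line at their mean, and all tested transcripts at the right. The medians of the lid and the base lie above 0 in both AP_34d libraries and below 0 in both PLA_34d libraries, and all tested transcripts stay within 0.03 of 0.

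In PLA_34d the levels were lower than in RA_0, by a median of 0.31 in the cap and 0.44 in the core on the log2 scale, and 36 of 39 members had the lower mean, while 49% of all transcripts had the higher one. No member passed limma, 0 had an unadjusted p under 0.05 in either direction (2.38% of all transcripts higher and 0.819% lower), and 0 passed with edgeR or DESeq2. Both PLA_34d libraries lay below both RA_0 libraries for 4 of 39 members (14.2% of all) and above them for 1 (16.8%). Without PLA_34d replicate 1 the cap median was 0.05, and without RA_0 replicate 2 the count was 2 members lower (2.57% of all).

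At 1 hour both treatments had cap levels slightly above RA_0. The cap median was 0.22 in AP_1h and 0.23 in PLA_1h, positive for 17 of 17 subunits in each (50.1% and 49.3% of all transcripts), and the core median 0.17 and 0.09. These differences are below the SD of 0.34 to 0.37 between replicates, and both comparisons share the RA_0 libraries. In AP_1h 2 members were higher and 0 lower at an unadjusted limma p under 0.05 (Psme4 and Psma3, against 3.62% of all higher and 5.27% lower), and in PLA_1h 1 was higher and 0 lower (Psme4, against 1.38% and 1.21%). None passed adjustment in either with limma, which called 0.0292% of all transcripts in AP_1h and 0% in PLA_1h, nor with edgeR or DESeq2 (2 and 3 members at an unadjusted p under 0.05 in AP_1h, against 3.53% and 4.08% of all higher). Without RA_0 replicate 2 or AP_1h replicate 2 the AP_1h count was 0 (3.05% and 3.17% of all higher), and it was 1 to 3 with each of the other libraries left out. The slow fibre markers differed from RA_0 in both 1-hour groups, as given above, and their part in these levels was not tested. The libraries were apart, higher, for 5 of 39 members in AP_1h (20.6% of all) and 8 in PLA_1h (15.8%), and lower for 1 in each (21% and 13.6% of all). AP_1h and PLA_1h did not separate: the median difference was 0.07 in the core and 0.02 in the cap, 0 members had an unadjusted p under 0.05 (1.3% of all higher, 2.74% lower) or passed with edgeR or DESeq2, and 4 members were higher without overlap (13.9%).

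Whether the acupuncture and placebo groups differed more at 34 days than at 1 hour was tested as an interaction, chosen after the data had been seen. Its median was 0.93 over the cap and 0.66 over the core, and it was positive for all 31, as for 51.8% of all transcripts. With limma 0 members passed and 4, all of the cap (Psmc1, Psmd1, Psmd11 and Psmd14), were higher at an unadjusted p under 0.05, against 1.9% of all transcripts higher and 2.15% lower. Without AP_34d replicate 2, without PLA_34d replicate 1 or without PLA_1h replicate 2 it was 0 members, and over the other 7 omissions 1 to 6 were higher. Over the 10 omissions 1.1% to 2.58% of all transcripts were higher. Without PLA_34d replicate 2, 6 members were higher and 1 lower, against 2.16% and 6.68% of all, and limma called 1.02% of all transcripts but 0 members.

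The 4 activators did not share 1 pattern. Psme4 encodes PA200, a nuclear activator that caps the core in place of the ATPase cap, on rn4 chr14:111892871-111997184. It was at 253 and 253 CPM in RA_0, 481 and 533 in AP_1h, 574 and 407 in PLA_1h, 553 and 1089 in AP_34d and 306 and 376 in PLA_34d. All 8 libraries taken after the start of either therapy lay above both RA_0 libraries, and AP_34d lay above PLA_34d without overlap. Of all tested transcripts, 20.6% lay above RA_0 without overlap in AP_1h, 15.8% in PLA_1h, 16.4% in AP_34d and 16.8% in PLA_34d. Against RA_0 the difference was 1.00 ± 0.40 in AP_1h (limma adjusted p = 0.512), 0.93 ± 0.40 in PLA_1h (adjusted p = 1), 1.61 ± 0.40 or 3.06-fold in AP_34d (adjusted p = 0.722) and 0.42 ± 0.40 in PLA_34d (adjusted p = 0.914). These 4 share the RA_0 libraries, both of which were high in slow fibre markers, whose part was not tested. AP_34d exceeded PLA_34d by 1.19 ± 0.40 (adjusted p = 0.846).

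Of limma, limma-voom, edgeR and DESeq2, only DESeq2 called a member, and that was Psme4. It did so in AP_34d against RA_0 (log2 1.68, adjusted p = 0.0097, a call made for 0.322% of all transcripts) and across the 5 groups (2.48% of all). The adjusted p of Psme4 in AP_34d against RA_0 ranged from 0.0097 to 1 over the alternatives. Without AP_34d replicate 2 its difference from RA_0 was 1.13. By limma's F test over the groups it was the 1 member with an unadjusted p under 0.05 (4.98% of all transcripts), and it did not pass (adjusted p = 0.893).

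Psme1 and Psme2 encode the alpha and beta chains of PA28, the interferon-inducible activator that works with the inducible core in antigen processing. Psme1 was at 51.5 and 34.2 CPM in RA_0, 38.9 and 30.8 in AP_1h, 30.4 and 31.8 in PLA_1h, 36.9 and 27.2 in AP_34d and 37.2 and 31.0 in PLA_34d, so the groups overlapped at 34 days (−0.10 ± 0.32, limma adjusted p = 0.98). Psme2 was low, at 3.82 and 2.97 CPM in RA_0, 4.22 and 2.80 in AP_1h, 2.18 and 3.16 in PLA_1h, 2.34 and 2.24 in AP_34d and 5.50 and 3.27 in PLA_34d, with 12 to 49 reads a library. It was the member whose AP_34d libraries lay below both PLA_34d libraries, by −0.68 ± 0.38 (adjusted p = 0.878). Its highest value was in PLA_34d replicate 1, the library with the highest sum of leukocyte markers.

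Psme3, the nuclear PA28 gamma, was at 60.6 and 56.3 CPM in RA_0, 76.1 and 80.0 in AP_1h, 64.2 and 63.5 in PLA_1h, 68.8 and 70.5 in AP_34d and 60.3 and 53.3 in PLA_34d. Both acupuncture libraries lay above both placebo libraries at each time. So they did for 13.9% of all tested transcripts at 1 hour and 16% at 34 days. Replicates lay close together. The difference from placebo was small and did not pass, at 0.28 ± 0.26 after 1 hour (limma adjusted p = 1) and 0.29 ± 0.26 after 34 days (adjusted p = 0.921).

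**Figure D4:**
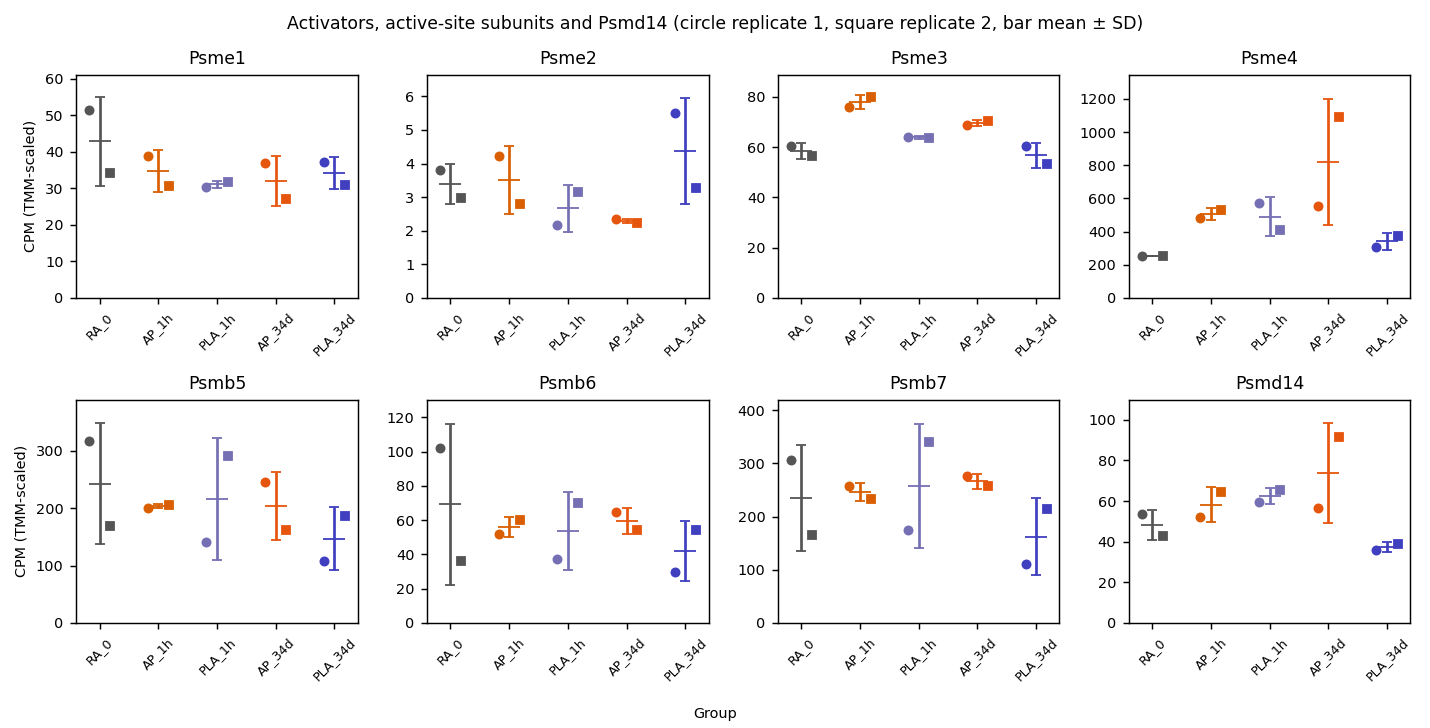
CPM of the 4 activators (top row) and of the 3 active-site subunits and Psmd14 (bottom row) by group, with a circle for replicate 1, a square for replicate 2 and a bar for the mean ± SD of 2 libraries, each axis from 0. Psme4 is lowest in RA_0 (253 CPM in both libraries) and reaches 1089 CPM in AP_34d replicate 2, while the active-site subunits differ widely within RA_0 and PLA_1h.

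The chaperones of cap assembly were at low to moderate levels, with differences between AP_34d and PLA_34d of 0.52 for Psmd5, 0.36 for Psmd9 and 0.10 for Psmd10, and 1 of the 3 without overlap. Psmc3ip, the match by name, differed by 0.17.

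Of 35 further genes of the pathway (among them assembly factors, regulators, ubiquitin carriers and the inducible core), 32 were in the table, with 33 tested transcripts. None passed limma in any comparison. In AP_34d against PLA_34d 30 of 33 were higher on average, with 5 higher and 1 lower at an unadjusted p under 0.05, beside 50.2%, 2.51% and 2.96% of all tested transcripts. Those higher included the protease Ddi2, which cuts and so activates Nfe2l1 (1.41), the proteasome-binding Zfand5 (1.27), Nploc4, a partner of the unfoldase p97 (1.17), and the carrier Rad23b (0.87).

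Against RA_0, AP_34d had 6 of 33 higher at an unadjusted p under 0.05 and 0 lower, beside 2.51% and 2.25% of all. These included Ddi2, Zfand5 and Rad23b again, the carrier Ubqln2 (0.77) and Nfe2l1 (0.94), the regulator of subunit genes named above. Nfe2l1 was at 172 and 307 CPM in RA_0, 249 and 221 in AP_1h, 564 and 415 in PLA_1h, 356 and 550.3 in AP_34d and 373 and 441 in PLA_34d. It was higher after placebo too, by 1.07 in PLA_1h, and its AP_34d and PLA_34d libraries overlapped (0.13 ± 0.39, limma adjusted p = 0.978). AP_1h was lower than PLA_1h in it (−1.04, adjusted p = 1). The part of Nfe2l1 in the subunit levels was not tested. Elsewhere the cap deubiquitinase Uchl5 was at 0.89 in AP_1h against RA_0 and the core assembly chaperone Psmg2 at −0.79 in PLA_34d against RA_0, both at an unadjusted p under 0.05 and neither passing adjustment.

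The inducible subunits, which replace the active-site subunits in immune cells and under interferon, differed in the other direction. Psmb8, Psmb9 and Psmb10 had a median difference of −1.04 between AP_34d and PLA_34d, and of −0.33 without PLA_34d replicate 1. Psmb8 was at 8.83 and 6.98 CPM in RA_0, 14.5 and 8.68 in AP_1h, 12.99 and 8.78 in PLA_1h, 10.35 and 7.17 in AP_34d and 39.6 and 8.67 in PLA_34d. Its 34-day groups overlapped, and its difference of −1.04 was −0.01 without PLA_34d replicate 1. Psmb10, at 13.1 and 6.87 CPM in AP_34d and 19.97 and 12.2 in PLA_34d, overlapped too (−0.66, and −0.33 without that library). Psmb9 was at 8.35 and 4.90 CPM in RA_0, 12.7 and 4.34 in AP_1h, 7.24 and 5.62 in PLA_1h, 4.30 and 3.73 in AP_34d and 18.1 and 7.11 in PLA_34d (−1.31 ± 0.53, limma adjusted p = 0.856, and −0.70 without PLA_34d replicate 1), with no overlap. Their summed level was 77.6 CPM in PLA_34d replicate 1 and 17.8 to 42.6 CPM in the other 9 libraries, so the library lowest in constitutive core subunits was the highest in inducible ones, and it was also the one with the highest leukocyte sum. The part of leukocytes in this was not tested.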

How the data were processed

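RNA from muscle beneath the skin was sequenced as polyadenylated libraries on an Illumina HiSeq instrument. As the labels state, reads were called with CASAVA 1.8.2, trimmed with cutadapt 1.2.1, aligned to rn4 with Bowtie2 2.1.0 and counted per UCSC transcript with HTSeq 0.5.4p3 (intersection-nonempty). The deposited values are a signal per transcript, read counts scaled by the authors to CPM with TMM factors in edgeR 3.4.2. All values were whole multiples of 1 read within 0.01 reads, so reads were recovered (100% of values). The 41 members and all lists were chosen with earlier results of these data known.

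Transcripts for which a group had 1 CPM or more in each of its libraries (10259, 59.6%) were tested as log2(CPM + 1), a scale that understates changes of low transcripts, with limma 3.58.1 (1 mean per group, all 10 libraries, eBayes trended on the mean, residual df 5, prior df 5.14). Benjamini-Hochberg adjustment ran over all tested transcripts, with a call under 0.05. Levels are given per library. Since lengths were not used, low, moderate and abundant refer to CPM alone and do not rank genes by number of RNA molecules. Members with values in every library were the active-site subunits, Psmd14, the activators and, for each pair of groups, up to 3 members per direction with the smallest unadjusted p under 0.05. Genes of the pathway list got values where unadjusted p was under 0.05, except for 1 gene that is not reported here, and lists of fibre, leukocyte, adipocyte, tendon, blood and keratinocyte markers were summed per library. Alternatives were pseudocounts of 0.25 and 4, other filters and scalings, limma-voom, edgeR 4.0.16 and DESeq2 1.42.0 on recovered reads, a replicate block and each library left out. The limma fit was tested on simulated counts, whereas limma-voom, edgeR and DESeq2 were not. Work used R 4.3.3 and Python 3.11.15. Of the members, 40 matched a RefSeq gene.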

Additional observations from a re-analysis of the deposited data

How the results depend on the processing

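No member was called by limma in any comparison under any of the limma, limma-voom or edgeR alternatives or with any library left out. DESeq2 called 1 member, Psme4, in AP_34d against RA_0 (log2 1.68) and 1, the same, across the 5 groups. Requiring a mean of at least 5 CPM removes Psme2, and the activator median then became 0.41 (AP_1h against RA_0), 0.13 (PLA_1h), 0.25 (AP_34d), −0.04 (PLA_34d), 0.29 (AP_34d against PLA_34d) and 0.01 (interaction). With each library left out, core medians ran from −0.17 to 0.54 (AP_1h against RA_0) and −0.03 to 0.69 (AP_34d against RA_0). Cap medians ran from −0.62 to 0.05 (PLA_34d against RA_0), 0.56 to 1.17 (AP_34d against PLA_34d) and 0.57 to 1.26 (interaction). Activator medians ran from −0.18 to 0.10 (AP_34d against RA_0), −0.08 to 0.21 (PLA_34d against RA_0) and 0.10 to 0.28 (AP_1h against PLA_1h). Psme1 in AP_34d against PLA_34d, −0.31 to 0.12 over these, turned to 0.12 without AP_34d replicate 2 and 0.03 without PLA_34d replicate 1. The count of members at an unadjusted p under 0.05 in that comparison, 17, was 9 with the compared groups alone (1.74% of all higher) and 10 after quantile normalization (2.87%). The cause of these shifts was not tested. Core and cap medians kept their sign in each pair of groups under the 3 other scalings. With the replicate number as a block, 0 members were called, the cap median of AP_34d against PLA_34d was 0.91, and 12 members had an unadjusted p under 0.05 (2.21% of all higher). Differences of replicate 1 minus replicate 2 over the tested transcripts correlated at −0.464 to 0.446 between groups, over 10 pairs of groups. Their sign was mixed, which does not settle whether the numbers pair the rats. Depth limits Psme2, Psmd10, Psma3l and Psmb11.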

Other observations

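Marker sums not given above were, over the 10 libraries, 32.4 to 230 CPM for the 3 of 6 tendon markers in the table and 212 to 575 CPM for the 3 red blood cell markers. PLA_34d replicate 1 stood at 143 and 212 CPM in them, the last being the lowest of the 10.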
